A study of Mus musculus with 2 samples.

Results

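Synaptic adhesion proteins span the cleft between neurons and line up the site of release with the receptors that face it. Neurexins sit on the presynaptic side, and the neuroligins and the LRRTM proteins bind them from the postsynaptic side. The genes described here are 9 mouse genes of this system, chosen by symbol among the 31053 genes counted, and all 9 had UMIs in both libraries. They are the neurexins Nrxn2 and Nrxn3, the neuroligins Nlgn1, Nlgn2 and Nlgn3, the LRRTM genes Lrrtm3 and Lrrtm4, the contactin-associated protein gene Cntnap2 and the receptor phosphatase gene Ptprd. RNA is counted in unique molecular identifiers (UMIs), each of which stands for 1 captured molecule, and levels are given as counts per 1000000 UMIs of a cell class (CPM).

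The nuclei came from the entorhinal cortex of APP/PS1 mice, all male, which are transgenic for APP and presenilin and deposit amyloid. In 1 library the mice had drunk C18:1-Leu (N-oleoyl-leucine, OLE) at 25 mg/kg/day from 15 to 18 months of age, and in the other they had drunk the DMSO vehicle, both in alkaline water. Each library is a pool of 5 mice, and the pool cannot be split into animals. Depth was 70845739 UMIs over 6745 nuclei for vehicle, against 69485537 UMIs over 6173 nuclei for OLE, and 14 barcodes occur in both libraries. Since each treatment is a single library, treatments were not tested against each other, and every interval is a 95% interval for counting error only. Cortical layer genes were detected in both libraries, among them Cux2 with 6793 vehicle and 6212 OLE UMIs in glutamatergic-like nuclei.

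Nuclei were clustered without the 9 genes or 55 other adhesion genes, and clusters were named from marker genes. Classes are named here without the word like, and each is a class by its markers alone. There were 1810 vehicle and 1797 OLE glutamatergic nuclei, 333 and 349 GABAergic nuclei, 101 and 84 oligodendrocyte precursors (OPC), 591 and 529 oligodendrocytes, 120 and 136 astrocytes, and 333 and 268 microglia. A further 2481 vehicle and 2038 OLE nuclei, 38.9% and 34.8% of those retained, fell in the 2 largest clusters, which carried glutamatergic markers and stayed unnamed. Both also carried a share of 0.417 of the GABAergic markers, beside 0.833 of the glutamatergic ones, and haemoglobin genes such as Hbb-bs led the larger. Nuclei of these 2 clusters held medians of 2270 and 5064 UMIs, below the median of every glutamatergic cluster. These clusters split by library, with 2241 vehicle and 318 OLE nuclei in the larger and 240 vehicle and 1720 OLE nuclei in the other. Also unnamed were a cluster of 797 nuclei with both endothelial and glutamatergic markers, at a median of 1205 UMIs and 5.78% mitochondrial UMIs, and one of 84 nuclei with too few markers of any class.

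The genes are not alike in length. Ptprd (chromosome 4, 75941238 to 78211961, minus strand) spans 2271 kb on mm10, Cntnap2 (chromosome 6, 45059357 to 47304213, plus strand) 2245 kb and Nrxn3 (chromosome 12, 88722876 to 90334935, plus strand) 1612 kb. They rank 3, 5 and 11 in span among all genes counted. Nlgn1 (chromosome 3, 25426215 to 26332460, minus strand) spans 906 kb and Lrrtm4 (chromosome 6, 80018877 to 80810143, plus strand) 791 kb. Lrrtm3 (chromosome 10, 63928472 to 64090277, minus strand) spans 162 kb and overlaps Ctnna3 on the other strand, and Nrxn2 (chromosome 19, 6418731 to 6544169, plus strand) 125 kb. Nlgn3 (chromosome X, 101299168 to 101325963, plus strand) spans 26.8 kb and Nlgn2 (chromosome 11, 69823122 to 69837784, minus strand) 14.7 kb, so these 2 are not long genes. Introns were counted, and exons make up 0.457% of the span of Cntnap2 and 39.5% of that of Nlgn2. Several annotated genes lie on the same strand inside the longer members, 24 of them inside Cntnap2, and Gm21986 overlaps Nlgn3 on its strand. UMIs of such pairs may not be told apart.

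**Figure D1:**
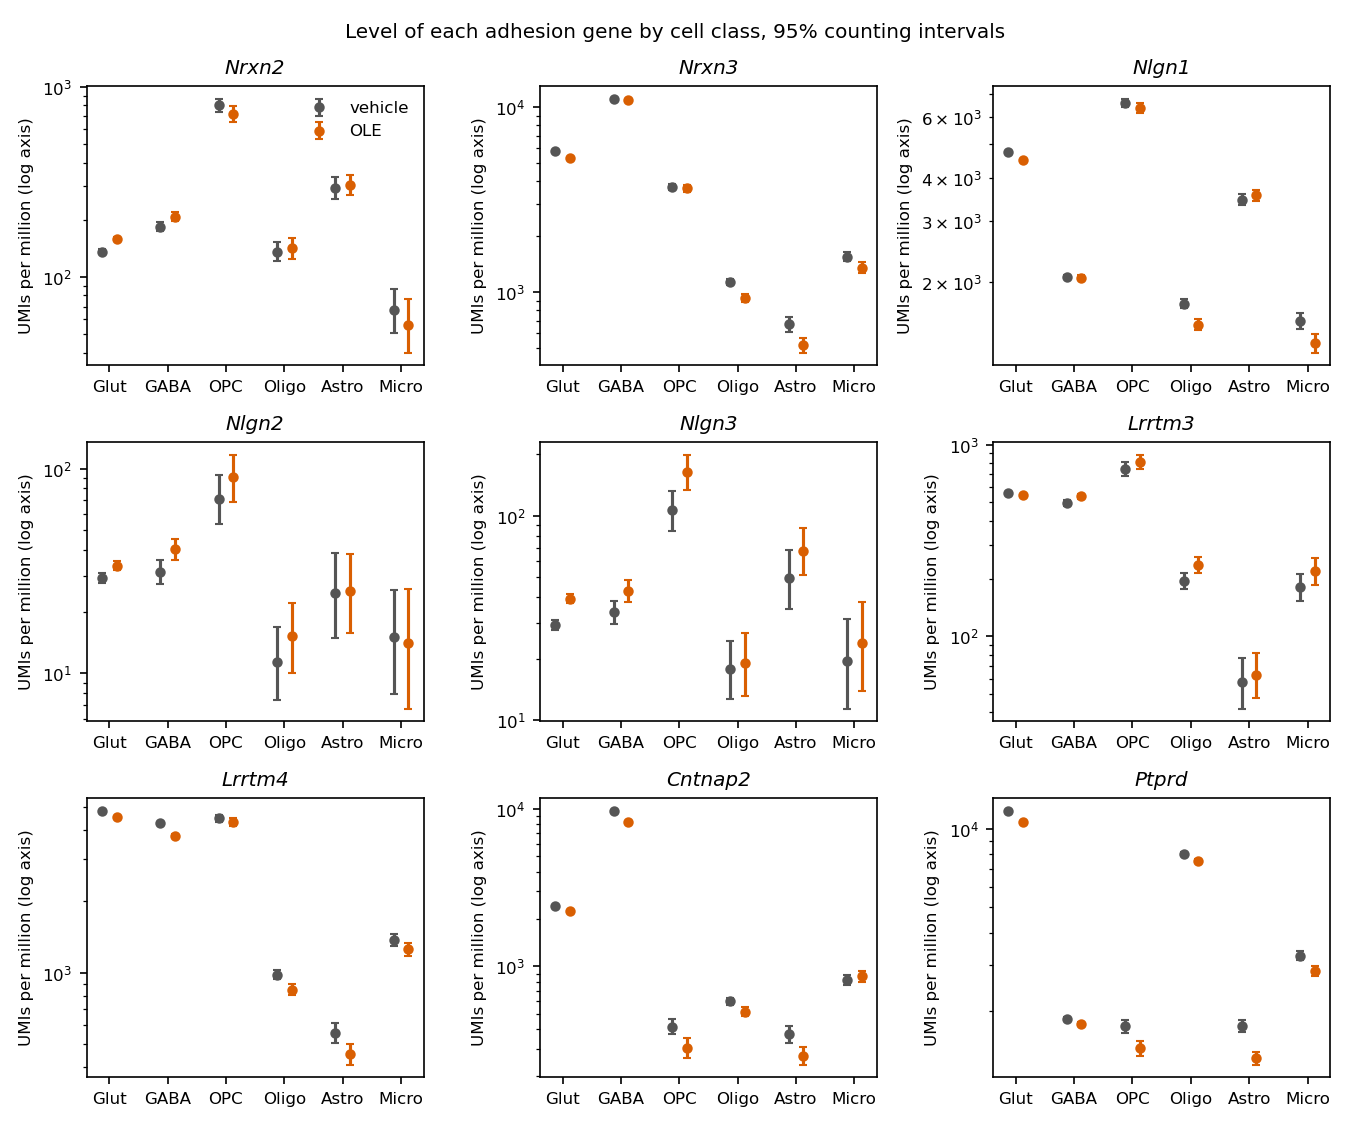
Level of each gene in 6 cell classes, as UMIs per 1000000 UMIs of the class on a log axis, with vehicle in grey, OLE in orange and bars for 95% counting intervals. Nrxn2 stands highest in OPC, at 801 and 721 CPM, and Ptprd in glutamatergic nuclei, at 11676 and 10577.

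Neurexins are the presynaptic receptors of the system. Nrxn3 was most abundant in GABAergic nuclei, at 11018 CPM in the vehicle library (interval 10940 to 11096) and 10934 in the OLE library (10853 to 11015). Glutamatergic nuclei held 5793 and 5339 CPM, so that the GABAergic level was 1.90 and 2.05 times the glutamatergic one. OPC followed with 3697 and 3643, then microglia with 1558 and 1359, oligodendrocytes with 1135 and 933, and astrocytes with 670 and 517. The order of these 6 classes was the same in both libraries, with no overlap between the intervals of neighbours.

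Nrxn2 had another order. Its level was 801 CPM in vehicle OPC (739 to 867) and 721 in OLE OPC (657 to 790), against 136 and 158 in glutamatergic nuclei and 184 and 208 in GABAergic nuclei. Astrocytes held 295 and 304 CPM, above both neuronal classes. Oligodendrocytes, at 136 and 142, overlapped glutamatergic nuclei in both libraries, and microglia were lowest of the 6 classes at 66.7 and 56.0. The OPC level was 5.88 and 4.57 times the glutamatergic level.

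Neuroligins bind neurexins from the postsynaptic membrane, Nlgn1 mainly at excitatory and Nlgn2 mainly at inhibitory synapses. Nlgn1 was highest in OPC, at 6601 CPM in the vehicle library (6421 to 6785) and 6373 in the OLE library (6179 to 6572). Glutamatergic nuclei held 4768 and 4516, astrocytes 3461 and 3559, and GABAergic nuclei 2064 and 2053. Oligodendrocytes, at 1729 and 1501, and microglia, at 1541 and 1328, were lowest of the 6 classes. The order was the same in both libraries, with no overlap between neighbours, and among neurons the GABAergic level of Nlgn1 was 0.433 and 0.455 times the glutamatergic one.

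Nlgn2 and Nlgn3, the shorter genes, gave far fewer UMIs. Nlgn2 stood at 29.1 and 33.6 CPM in glutamatergic nuclei, 31.3 and 40.3 in GABAergic nuclei, and 71.4 and 90.8 in OPC. Astrocytes held 24.8 and 25.2, oligodendrocytes 11.4 and 15.2, and microglia 15.0 and 14.0. Among these 6 classes OPC stood clear of the next in both libraries. Neighbours below it overlapped, except that in the OLE library the GABAergic interval (35.6 to 45.5) lay just above the glutamatergic one (31.8 to 35.5). Nlgn3, which is found at both kinds of synapse, stood at 29.4 and 39.4 in glutamatergic nuclei, 33.7 and 43.0 in GABAergic nuclei, 49.6 and 67.5 in astrocytes, and 107 and 164 in OPC. Oligodendrocytes held 17.8 and 19.1, and microglia 19.6 and 23.8. The intervals of the neuronal classes overlapped in both libraries for Nlgn3, while OPC stood above the rest of the 6 classes. Per 100 kb of span, glutamatergic nuclei of the vehicle library held 199 CPM of Nlgn2, 526 of Nlgn1 and 110 of Nlgn3, and it was not tested if UMIs scale with span.

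Lrrtm3 and Lrrtm4 encode leucine-rich repeat proteins of the postsynaptic side that bind neurexins or heparan sulfate proteoglycans. Lrrtm4 was at similar levels in 3 classes, with 4781 and 4529 CPM in glutamatergic nuclei, 4454 and 4298 in OPC, and 4277 and 3776 in GABAergic nuclei. Microglia held 1369 and 1254, oligodendrocytes 982 and 849, and astrocytes, the lowest of the 6 classes, 559 and 453. The OPC and GABAergic intervals overlapped in the vehicle library, and no other neighbours among the 6 classes did. Lrrtm3 was highest in OPC, at 746 CPM (686 to 809) and 814 (745 to 887), beside 558 and 545 in glutamatergic and 496 and 538 in GABAergic nuclei. Oligodendrocytes, at 195 and 235, overlapped microglia, at 181 and 218, and astrocytes held 57.5 and 62.9. The neuronal classes overlapped for Lrrtm3 in the OLE library but not in the vehicle library.

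Cntnap2 encodes a neurexin-related protein that clusters potassium channels along axons, and Ptprd a presynaptic phosphatase of the LAR type. They were the pair most unlike between neuronal classes. Cntnap2 stood at 9676 CPM in vehicle GABAergic nuclei (9604 to 9750) and 8307 in OLE GABAergic nuclei (8237 to 8378), against 2420 and 2242 in glutamatergic nuclei, 4.00 and 3.70 times as high. Its glial levels were lower still, at 816 and 863 in microglia, 599 and 515 in oligodendrocytes, 413 and 302 in OPC, and 370 and 270 in astrocytes, and the intervals of OPC and astrocytes overlapped. Ptprd stood at 11676 and 10577 CPM in glutamatergic nuclei against 1874 and 1789 in GABAergic nuclei, where it was 0.160 and 0.169 of the glutamatergic level. Glutamatergic genes not known in GABAergic neurons gave a background for that value, since 7 of them had a median GABAergic level of 12.9% and 10.1% of their glutamatergic level and a 90th percentile of 26.0% and 27.2%. Ptprd, at 16.0% and 16.9%, was below that percentile, and Nlgn1, at 43.3% and 45.5%, above it. The highest of the 7 genes stood at 42.5% and 42.1%. The class value of Ptprd covers unlike clusters. It was 1400 and 1233 CPM in the GABAergic cluster led by Kcnmb2 and Nxph1. In that led by Adarb2 and Vip it was 2944 and 2909, and single clusters were not read against this background.

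Ptprd was also high in oligodendrocytes, the myelin-forming glia, at 8021 CPM in the vehicle library (7903 to 8140) and 7520 in the OLE library (7393 to 7649). OPC, the precursors of these cells, held 1754 and 1445. Microglia held 3272 and 2863, and astrocytes 1762 and 1327. Oligodendrocytes were thus second only to glutamatergic nuclei in both libraries, and the GABAergic, astrocyte and OPC intervals overlapped in the vehicle library.

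Across the 11 clusters of the glutamatergic class the spread depended on the gene. Nlgn1 ranged over 24.0-fold in the vehicle and 28.0-fold in the OLE library, from 340 and 309 CPM in the cluster led by Rnf152 and Ccdc129 to 8145 and 8641 in that led by Zfp804b and Fyb2, which held 32 and 22 nuclei. Lrrtm4 ranged 7.57-fold and 7.15-fold, highest in the cluster led by Stac and Gm2164. Ptprd ranged only 2.30-fold and 2.40-fold, Nlgn2 1.86-fold and 2.56-fold, and Nlgn3 1.75-fold and 1.38-fold. Levels of Nlgn1 and Lrrtm4 across clusters were alike in both libraries, with Pearson r across clusters of 1.00 for Nlgn1 and 1.00 for Lrrtm4 on log2 levels. For the sparser Nlgn2 and Nlgn3 r was 0.23 and 0.15 over the same 11 clusters.

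Free RNA from broken neurons enters droplets with glia, so a glial level was read against 24 genes taken as neuronal. For each gene the level in a glial class was divided by its level in neuronal nuclei, glutamatergic and GABAergic together, and a member counted as above free neuronal RNA where its lower bound passed the 90th percentile of the reference genes in both libraries. In OPC 7 members were above, in astrocytes 4, in oligodendrocytes 2 and in microglia none. All 24 reference genes had UMIs in each of these classes, and their sum stood between 2332 and 5729 CPM there. Not all of them were alike across glia, since Khdrbs2 stood at 67.2% and 67.4% of its neuronal level in OPC and 9.86% and 8.71% in astrocytes.

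**Figure D2:**
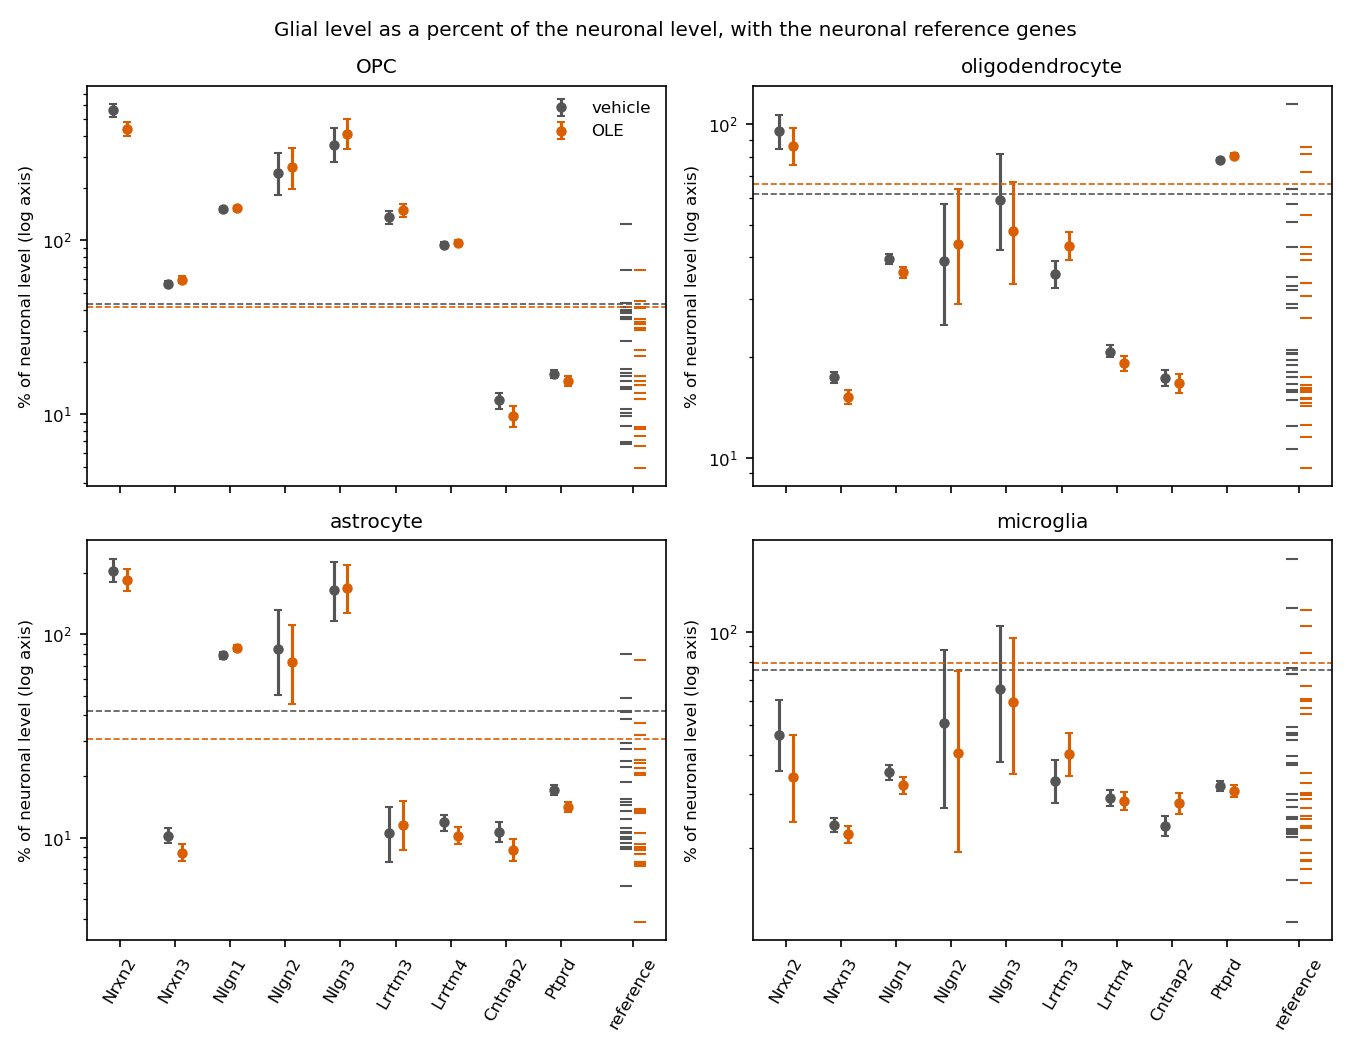
Level in each of 4 glial classes as a percent of the neuronal level, on a log axis, with vehicle in grey, OLE in orange, 95% counting intervals, short bars for the 24 reference genes and dashed lines at their 90th percentile. In OPC, Nrxn2 stands at 560% and 437% of its neuronal level, above lines at 43.0% and 41.2%.

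In OPC the 90th percentile of the reference was 43.0% of the neuronal level in the vehicle and 41.2% in the OLE library. Nrxn2 stood at 560% (515 to 608) and 437% (397 to 481), Nlgn3 at 355% and 412%, and Nlgn2 at 243% and 263%. Nlgn1, Lrrtm3, Lrrtm4 and Nrxn3 were above it as well, Nrxn3 by the least at 56.5% and 59.5%. Cntnap2, at 12.0% and 9.76%, and Ptprd, at 17.1% and 15.5%, were below the reference median of 22.3% and 19.1%. Against the highest reference gene in place of the percentile, 5 members stayed above in OPC.

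Astrocytes take up transmitter and wrap synapses, and there the reference 90th percentile was 41.9% and 30.5%. Nrxn2 stood at 206% and 185% of its neuronal level, Nlgn3 at 165% and 169%, Nlgn1 at 79.0% and 85.4%, and Nlgn2 at 84.3% and 72.8%. The Nlgn2 value rests on 19 and 22 UMIs and that of Nlgn3 on 38 and 59. The other 5 members lay between 8.44% and 17.1%, below the percentile in either library. Against the highest reference gene 2 members stayed above, Nrxn2 and Nlgn3.

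In oligodendrocytes the reference 90th percentile was 62.0% and 66.4%. Ptprd stood at 78.0% (76.9 to 79.2) and 80.5% (79.1 to 81.9), with 17582 and 13383 UMIs, and Nrxn2 at 95.4% and 85.9%. No member counted as above the highest reference gene, Nefl, at 115% and 85.7%. The Nefl values rest on only 37 and 35 UMIs of a gene of 5.23 kb. Against reference genes over 100 kb alone, a comparison chosen after the data were seen, 5 members were above, Nrxn2, Nlgn1, Nlgn3, Lrrtm3 and Ptprd. The count in this class thus moved with the reference.

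Microglia gave no member above the percentile, which was 75.5% and 79.7% there. Ptprd stood at 31.8% and 30.7% of its neuronal level, and the reference median was 33.5% and 29.3%. A UMI of Ptprd was nonetheless found in 99.7% of vehicle and 98.9% of OLE microglia, at median depths of 2441 and 2348 UMIs, so a share of nuclei with a UMI does not mark expression for so abundant a gene. With 1000 UMIs drawn from each nucleus, and 1 vehicle and 2 OLE microglia dropped for having fewer, the shares in microglia were 93.7% and 91.7%. Nrxn2, by contrast, had a UMI in 99.0% and 98.8% of OPC and in 13.2% and 13.1% of microglia, and 56.4% and 48.8% against 4.82% and 5.64% after the draw.

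The study asked how OLE changed expression in each cell type, and in glutamatergic nuclei the members differed little between the libraries. Of the 9, none was lower by more than log2 0.25 and 1 was higher, where 3.15% of the 13998 genes with at least 100 UMIs were lower and 21.1% were higher. The median log2 ratio of OLE to vehicle was -0.08 over the members and 0.07 over all genes. Nlgn3 was the member past the fold, with 1237 vehicle and 1547 OLE UMIs and a log2 ratio of 0.42 (0.31 to 0.53). Nrxn2 and Nlgn2 were both at 0.21. Nrxn2 alone of these 3 took the other sign in a setting, at -0.09 in the draw of 1000 UMIs per nucleus. That value (-0.35 to 0.16) came from 272 and 253 UMIs in 1 draw, and the expected value over all draws is 0.16. The median of all genes set to 0, a shift of 0.07, left the members' median at -0.15. At a fold of 1.5 no member was higher, and no share over all genes is given for that fold.

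The 5 members over 300 kb were all slightly lower in OLE glutamatergic nuclei. Ptprd had the lowest log2 ratio, -0.14 (-0.15 to -0.14), and was followed by Nrxn3 at -0.12, Cntnap2 at -0.11, and Nlgn1 and Lrrtm4 at -0.08. Across the 11 glutamatergic clusters Ptprd was lower in OLE in 10. Single clusters went further than the class, from -0.34 to 0.19 for Nrxn3, -0.38 to 0.04 for Cntnap2 and 0.14 to 0.99 for Nlgn3. Lrrtm3, of intermediate span, stood at -0.03 and was at 0.01 after log-normalised clustering.

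**Figure D3:**
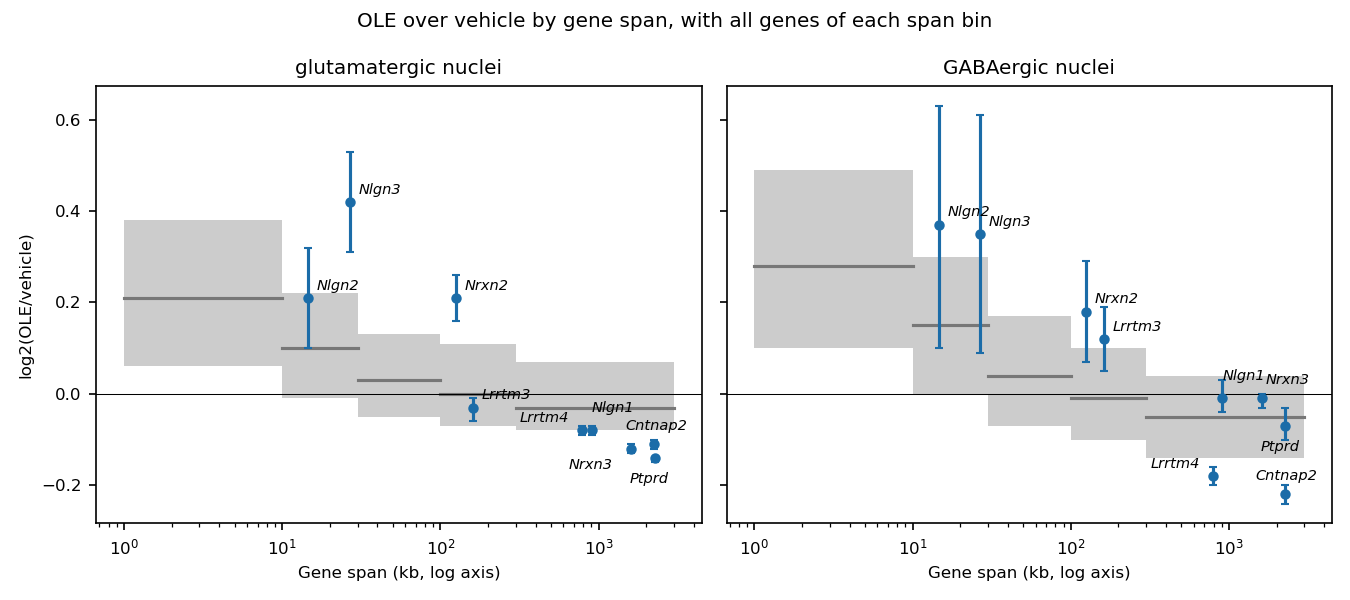
The log2 ratio of OLE to vehicle against gene span in kb on a log axis, with 95% counting intervals, and for all genes of each span bin the median as a line and the range from the 25th to the 75th percentile as a grey box (the open bins at either end are drawn to a fixed edge). In glutamatergic nuclei Nlgn3 stands at 0.42 and Ptprd at -0.14.

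Over all genes, ratios were lower the longer the gene in both neuronal classes. In glutamatergic nuclei the median log2 ratio was 0.21 under 10 kb, 0.10 from 10 to 30 kb, 0.03 from 30 to 100 kb, 0.00 from 100 to 300 kb and -0.03 over 300 kb. Nlgn2 and Nlgn3 belong to the bin at 0.10, and the 5 longest members to the bin at -0.03, whose 25th percentile was -0.08. Nrxn2, at 0.21, stood above the 75th percentile of its bin, 0.11. Nlgn3, at 0.42, was above the 75th percentile of its own bin, 0.22, and Nlgn2, at 0.21, was not. Ribosomal protein genes made up 0.154% of vehicle and 0.184% of OLE glutamatergic UMIs, nuclear RNAs such as Malat1 3.79% and 4.20%, and mitochondrial genes 0.334% and 0.314%. In GABAergic nuclei the bins ran from 0.28 under 10 kb to -0.05 over 300 kb, and nuclear RNAs made up 4.01% of vehicle and 4.32% of OLE UMIs. Glial classes differed with length as well, from 0.13 under 10 kb to -0.05 over 300 kb in OPC, 0.23 to -0.14 in oligodendrocytes, 0.19 to -0.12 in astrocytes and 0.15 to -0.12 in microglia. The part of these RNA features in the ratios was not tested.

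In GABAergic nuclei none of the 9 members was lower and 2 were higher by more than log2 0.25, beside 4.32% and 24.3% of 9648 genes. The members were Nlgn2, at 0.37 (0.10 to 0.63) with 219 and 259 UMIs, and Nlgn3, at 0.35 (0.09 to 0.61) with 236 and 276 UMIs. Cntnap2 was the lowest at -0.22 (-0.24 to -0.20), then Lrrtm4 at -0.18 (-0.20 to -0.16). The intervals of Nrxn3 and Nlgn1, both at -0.01 over the class, held 0. Cntnap2 was lower in both GABAergic clusters, at -0.26 in that led by Kcnmb2 and Nxph1 and -0.15 in that led by Adarb2 and Vip, while Lrrtm4 stood at -0.27 and 0.03. Nlgn1 went opposite ways in these clusters, at -0.17 (-0.22 to -0.12) and 0.15 (0.10 to 0.20), and Nrxn3 stood at 0.02 and -0.09. The median over the members was -0.01, and that over all genes 0.07. With the median of all genes set to 0, the members' median was -0.08 and 2 were lower, Cntnap2 at -0.30 and Lrrtm4 at -0.25. Of the 9648 genes 883 were lower and 1672 higher under that scaling. At a fold of 1.5 no member was higher, and at a minimum of 500 UMIs 1 was, Nlgn3. No share over all genes is given for either of these settings, so these counts cannot be set against all genes.

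In OPC 2 members were lower and 2 higher, beside 16.5% and 15.6% of 2584 genes. Cntnap2 stood at -0.45 (-0.72 to -0.19) and Ptprd at -0.28 (-0.40 to -0.16), and Nlgn3 at 0.63 (0.20 to 1.06) from 82 and 105 UMIs. The interval of Nlgn2, at 0.35, held 0. Neither of the lower members was above free neuronal RNA in OPC, where the summed reference genes stood at 4216 CPM in the vehicle and 3676 in the OLE library, and their part in these ratios was not tested. With no nuclei left out as doublets, and all nuclei clustered anew, the ratio of Cntnap2 was 0.05 and that of Ptprd 0.50. The direction of both thus differed in this setting, and the cause was not tested. Nlgn2 was then at 0.18, and at 0.14 as the mean over nuclei, within the fold in either setting.

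In astrocytes 6 members had 100 UMIs, of which 4 were lower and none higher, beside 17.9% and 15.5% of 2993 genes. They were Cntnap2 at -0.45, Ptprd at -0.41, Nrxn3 at -0.37 and Lrrtm4 at -0.30, all over 300 kb long and none above free neuronal RNA in this class. Of all astrocyte genes over 300 kb 30.7% were lower. Nlgn1, also over 300 kb but above free neuronal RNA, stood at 0.04 (-0.03 to 0.12). The summed reference genes stood at 2775 CPM in vehicle and 2332 in OLE astrocytes, and their part in these ratios was not tested. With no nuclei left out as doublets, Cntnap2 stood at 0.49, Nrxn3 at 0.45, Ptprd at 0.40 and Lrrtm4 at -0.01. In the draw of 1000 UMIs Lrrtm4 was at -0.94 from 90 and 53 UMIs, where the expected value over all draws is -0.46.

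Of 7 members with 100 UMIs in oligodendrocytes, 1 was lower and 1 higher, beside 10.9% and 18.1% of 5861 genes. These were Nrxn3 at -0.28 (-0.37 to -0.19) and Lrrtm3 at 0.27 (0.07 to 0.47), and the abundant Ptprd stood at -0.09 (-0.13 to -0.06). Neither Nrxn3 nor Lrrtm3 was above free neuronal RNA in this class, though Lrrtm3 was against reference genes over 100 kb alone. The summed reference genes stood at 4109 CPM in the vehicle and 3679 in the OLE library, and their part in these ratios was not tested. With no nuclei left out as doublets 4 members were lower and 0 higher, with Nrxn3 at -0.50, Lrrtm4 and Cntnap2 at -0.38 and Nlgn1 at -0.27, and Lrrtm3 was at 0.02. No share over all genes is given for that setting. In the main setting 23.7% of oligodendrocyte genes over 300 kb, as these 4 members are, were lower. With the median of all genes set to 0, Lrrtm3 was no longer past the fold, so that 0 members were higher, beside 949 of the 5861 genes.

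In microglia 6 members had 100 UMIs, none lower and 1 higher, beside 16.0% and 14.7% of 3651 genes. That member was Lrrtm3, at 0.27, with an interval that held 0. After log-normalised clustering 4 were lower, Nrxn3 at -0.41, Nlgn1 at -0.40, Ptprd at -0.38 and Lrrtm4 at -0.32, and as the mean over nuclei the same members were lower. In the draw of 1000 UMIs 3 were lower, Nrxn3, Nlgn1 and Ptprd, and Lrrtm4 was at -0.23, where the expected value over all draws is -0.28. With no nuclei left out as doublets 3 were lower, Nrxn2, Nlgn1 and Ptprd, while Nrxn3, at -0.20 in the main setting, was at 0.12 and Cntnap2 was higher at 0.34. Lrrtm3 was within the fold with no doublets left out, at 0.12, and as the mean over nuclei, at 0.22. For this class shares over all genes are given in the main setting alone, where 24.4% of genes over 300 kb were lower. The members past the fold in microglia thus depend on the processing, in either direction.

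Of 55 further adhesion genes, none was lower and 12 were higher in glutamatergic nuclei, where 3.15% and 21.1% of all genes were, with a median log2 ratio of 0.06 beside 0.07 over all genes. Of the 49 with 100 UMIs in GABAergic nuclei 1 was lower and 10 were higher, beside 4.32% and 24.3% of all genes, with a median of 0.01. By role, 4 of 7 secreted neurexin ligands were higher in glutamatergic nuclei, with a median of 0.26. C1ql2 is among these 4, and with 45 vehicle UMIs it reached the minimum of 100 only through its 176 OLE UMIs. The median span of the 7 ligands is 7.17 kb, and of all glutamatergic genes under 10 kb 42.2% were higher, with a median of 0.21. Higher were also 3 of 11 partners of LAR-type phosphatases (median 0.15), 1 of 12 contactins and contactin-associated proteins (-0.06), 1 of 10 latrophilins, teneurins and FLRT proteins (-0.01), 1 of 6 other postsynaptic partners of neurexins (0.10), 1 of 4 SynCAM proteins (0.11), 1 of 2 neuroligin inhibitors (0.09) and 0 of 3 other neurexin and LAR-type phosphatase genes (0.12). The lowest in glutamatergic nuclei were Tenm3 at -0.24, Cntn4 at -0.20 and Lrrc4c at -0.18, all over 300 kb long. The highest were C1ql2, a secreted ligand of neurexins, at 2.07 from 45 and 176 UMIs, C1ql3 at 0.66 and Slitrk2 at 0.64. A cluster with Prox1 among its leading genes, seen after log-normalised clustering, held 39 OLE and 0 vehicle nuclei, all of them within the glutamatergic class. Without these nuclei, a setting chosen after the data were seen, C1ql2 stood at 1.20 from 45 and 95 UMIs and C1ql3 at 0.56, while Nlgn3 was at 0.41 and Ptprd at -0.13. In GABAergic nuclei Cntn4 at -0.25, Il1rapl1 at -0.23 and Cntn6 at -0.18 were lowest, and Slitrk4 at 0.63, Cbln2 at 0.59 and Cntnap5b at 0.54 highest.

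Scaffold proteins hold the adhesion proteins and receptors in place inside the cell. Of 16 scaffold genes none was past the fold in glutamatergic nuclei, beside 3.15% lower and 21.1% higher among all genes, and their median was 0.02 where that of all genes was 0.07. In GABAergic nuclei, where 4.32% of all genes were lower and 24.3% higher, the scaffold median was -0.03 and 1 was higher, Lin7c at 0.26 with an interval that held 0. In glutamatergic nuclei Dlg2 at -0.11, Magi2 at -0.10 and Cask at -0.08 were lowest, and Ppfia3 at 0.13, Shank1 at 0.10 and Lin7c at 0.07 highest. In GABAergic nuclei Dlg2 at -0.14, Ppfia2 at -0.11 and Magi2 at -0.11 were lowest, and Shank1 at 0.19 and Lin7a at 0.18 came after Lin7c.

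Genes of like pattern were sought across 24 clusters, by the mean Pearson r of log2 levels over both libraries. The clusters share their libraries but differ in depth, with medians from 1205 to 30791.5 UMIs. Closest to Nlgn1 was Acp1 (r = 0.95), then Fam19a1 (0.72). Scn1a (0.92) and Ccser1 (0.91) were closest to Nrxn3, Cnksr2 (0.91) and Sv2b (0.90) to Ptprd, and Tmem130 (0.90) and B830012L14Rik (0.90) to Cntnap2. Pde4d (0.89) and Pak3 (0.88) were closest to Lrrtm3, Opcml (0.84) and Slc1a1 (0.83) to Lrrtm4, and Wnk3 (0.82) and Pcdh10 (0.80) to Nlgn3. Nrxn2 was nearest to Dclk2 (0.77) and Caskin1 (0.77), and Nlgn2 to Lrp3 (0.74) and H2afy2 (0.70). Among the members themselves Nrxn3 and Cntnap2 were most alike, at 0.81, followed by Nrxn2 and Nlgn3 at 0.78.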

How the data were processed

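The authors aligned reads with Cell Ranger to an mm10 pre-mRNA reference, so that introns were counted, and deposited for each barcode a whole-number UMI count per gene. The labels name Cell Ranger 3.0.1 and Seurat 4.0.4, and the file headers give version 3.0.2. Scrublet (scanpy 1.11.5) marked only 8 vehicle and 7 OLE nuclei as doublets by its own threshold. The authors report that doublets were removed in Seurat, and it is not known if this was done before deposit. The top 5% of scores in each library, 372 and 311 nuclei with ties, were left out. The remaining 12235 nuclei were normalised by SCTransform (sctransform 0.4.2 and Seurat 5.3.0 under R 4.3.3) and clustered on 3000 variable genes, 30 components and 20 neighbours at resolution 0.4.

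The members and the lists were chosen with earlier results of these data known. The rule that turns markers into names was set after the clusters had been seen and was revised. A count of markers by their fold over other clusters was looked at first, without giving names. In the next version a name needed at least 3 markers and 50% of the markers of a class at 20% or more of their highest cluster. It also needed no other class above 60% of that share, and no more markers of another class than of its own among the top 10 genes. It named 8126 glutamatergic nuclei and left 1157 unnamed. In the final version, a cluster with none of its own markers in the top 10 also stays unnamed where another class has over 25% of its markers at that level. That limit was chosen so that the 2 largest clusters stay unnamed, as planned, which gave 3607 glutamatergic and 5676 unnamed nuclei, and the other classes kept their numbers. In 2 further clusters, led in part by a marker of another class, 155 vehicle and 121 OLE nuclei (2.43% and 2.06%) stayed unnamed.

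UMIs were summed per library and class. Intervals are exact Poisson for levels, exact conditional binomial for ratios and Clopper-Pearson for shares. GENCODE vM21 gave positions for 31011 gene identifiers (99.9%). Besides the members, the genes named are the 3 highest and 3 lowest log2 ratios of each list among genes with at least 200 UMIs, and the 2 genes most alike each member among those with at least 500 UMIs per library. Nlgn3 at a minimum of 500 UMIs, and Lrrtm4, Nlgn1, Nrxn3 and Ptprd by GABAergic cluster, were singled out after their values were seen. The calculation of ratios was checked on simulated data, which is not a test of the treatments. Values for 1000 UMIs per nucleus come from a single draw, and draws with other seeds were looked at in checking the code but not used. The software was Python 3.11.15 with numpy 2.4.6, scipy 1.17.1, pandas 2.3.3 and, for figures, matplotlib 3.10.9.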

Additional observations from a re-analysis of the deposited data

How the results depend on the processing

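No paired analysis was possible because each treatment is 1 library. The median log2 ratio of the members in glutamatergic nuclei, -0.08, was -0.04 with no doublets left out, -0.07 with adhesion genes among the variable genes, -0.10 with the 2 largest clusters, unnamed in the report, counted as glutamatergic, -0.15 with the median of all genes set to 0 and -0.09 with 1000 UMIs drawn from each nucleus. Chosen after the data were seen, 2 more settings gave -0.05 with the clusters led by another class's marker added and -0.06 with clusters weighted alike. In GABAergic nuclei the median, -0.01, was -0.08 with the median of all genes set to 0. It was 0.03 with clusters weighted alike, 0.03 with 1000 UMIs drawn from each nucleus and 0.02 as the mean over nuclei. Under the first of these settings 2 members were lower, beside 883 of 9648 genes. With a fold of 1.5, 0 members were higher in either neuronal class, and in GABAergic nuclei 1 was higher at a minimum of 500 UMIs. Shares over all genes are not given for these settings or for the draw of 1000 UMIs. With 1000 UMIs drawn from each nucleus 1 GABAergic member was higher, Nrxn2 (0.34, -0.14 to 0.83, from 64 and 85 UMIs), which is not past the fold in the report. Nlgn2 (-0.29) and Nlgn3 (-0.53) fell below 100 UMIs there and took the other sign, with intervals that held 0. These values belong to the draw used, since expected values over all draws are 0.13 for Nrxn2, 0.29 for Nlgn2 and 0.27 for Nlgn3, which leaves the latter pair past the fold. The causes were not tested.

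With the median of all genes set to 0, the share of higher among all genes past the fold was 73.0% in place of 87.0% in glutamatergic nuclei and 65.4% in place of 84.9% in GABAergic nuclei. Members above free neuronal RNA in oligodendrocytes numbered 0 against the highest reference gene, 6 against the median gene and 5 against genes over 100 kb. In astrocytes 2 were above the highest gene, and in microglia 1 was above the median gene. With no doublets left out, log2 ratios past the fold changed sign for Cntnap2 (0.05) and Ptprd (0.50) in OPC and for Nrxn3 (0.45), Cntnap2 (0.49) and Ptprd (0.40) in astrocytes, in 219 OPC and 332 astrocytes. Within the fold, Nrxn3 in microglia went from -0.20 to 0.12 and Nrxn2 in astrocytes from 0.04 to -0.02. The cause was not tested. Apart from the 5 values past the fold that changed sign, 396 values of single members stayed within the counting interval and 99 moved beyond it. Settings that regroup, weight or leave out neuronal nuclei leave glial ratios as they are, and these count among the first. In glutamatergic nuclei the 5 members over 300 kb stayed lower under every setting, though the median set to 0 could only lower them. Nrxn2 in glutamatergic nuclei was -0.09 in the draw of 1000 UMIs, from 272 and 253 UMIs in the draw used, where the expected value over all draws is 0.16.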

Other observations

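The nuclei of the 2 largest clusters, which stayed unnamed, carried the same adhesion genes at other levels. Nlgn3 stood at 55.5 CPM in the vehicle and 58.7 in the OLE library there, 1.89 and 1.49 times its glutamatergic level, and Nlgn2 at 44.9 and 46.1, 1.54 and 1.37 times. The long Ptprd was at 0.747 and 0.753 of its glutamatergic level, and Nrxn3 at 0.742 and 0.780. Cntnap2 was at 1.01 and 1.05. The ratio of OLE to vehicle in these nuclei was within log2 0.25 for all 9 members, from -0.13 for Ptprd to 0.08 for Nlgn3. Few genes of like span were past it. From 10 to 30 kb 7.74% were lower and 16.4% higher, from 100 to 300 kb 6.18% and 3.90%, and over 300 kb 4.50% and 1.80%. This ratio also sets unlike clusters side by side. Of 2481 vehicle nuclei 2241 were in the larger cluster, and of 2038 OLE nuclei 1720 in the other. Median depths were 2362 and 4736.5 UMIs.

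Vascular leptomeningeal nuclei, 41 in each library, held 21 vehicle and 8 OLE UMIs of Nlgn2, 92.6 CPM (57.3 to 142) and 35.5 (15.3 to 70.0). That was 315% and 103% of the neuronal level, above the 90th percentile of the reference genes at 44.0% and 28.8%. No other member was above it in both libraries. With no doublets left out no cluster took this name, and after log-normalised clustering 2 clusters did, with 86 vehicle and 83 OLE nuclei.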
